A study of Homo sapiens with 6 samples.

Results

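Genes of the G1 phase of the cell cycle were followed in T24, a cell line from a human bladder cancer, after transfection of siRNAs against circ_0000235 (circ235). The 10 members were chosen by name, as the D cyclins CCND1, CCND2 and CCND3, the E cyclins CCNE1 and CCNE2, their kinases CDK2, CDK4 and CDK6, the transcription factor E2F1 and the retinoblastoma gene RB1, out of 58288 genes in the deposited counts. circ235 is a circular RNA made from exons of CCNY, and the study asked which genes lie downstream of it. The sequenced cells had received a control siRNA (NC), si-circ235-1 or si-circ235-2, with 2 libraries of each. The study describes the siRNAs against circ235 as 2 different sequences aimed at its looping site. For the sequencing it speaks of 2 target sites. The labels call the 3 conditions siControl, siRNA1 and siRNA2, which were matched to the names used here by number. All 3 groups are the same unsorted cell line after transient transfection, and the labels state neither the dose nor the time after transfection. Poly(A) selection removes circular RNA, so the level of circ235 itself could not be checked in these libraries. By qRT-PCR the study found a higher knockdown efficiency for the siRNA numbered first, and chose it for its follow-up experiments. More genes were called against NC with si-circ235-2 than with si-circ235-1 (shares below), and how this relates to the knockdown was not tested.

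D cyclins bind CDK4 or CDK6 and E cyclins bind CDK2, and the active kinases phosphorylate the RB1 protein. RB1 in its unphosphorylated form holds E2F1 and its relatives. Phosphorylation of RB1 frees them to drive genes of DNA replication, and also CCNE1 and E2F1. In bladder cancer this pathway is often altered by loss of RB1 or CDKN2A or by gain of CCND1 or CCNE1, and much of its control acts on protein and phosphorylation, which mRNA counts do not measure.

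The study places miR-330-5p downstream of circ235, so the sequence of this microRNA and its seed matches in CCND1 are shown first. Capitals mark the seed (bases 2 to 8) in the microRNA and its complementary word CCCAGAG in the 3' UTR. The mature sequence is that of RefSeq (GRCh38.p14), on the minus strand of chr19:45639049-45639070, and the 3' UTR is that of GENCODE release 29 on GRCh38.
hsa-miR-330-5p: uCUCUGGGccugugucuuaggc
CCND1, chr11:69652920-69652942, plus strand, exonic, 3' UTR: gcctgtttggcgtttCCCAGAGt
CCND1, chr11:69653620-69653642, plus strand, exonic, 3' UTR: aaccgcgccggtgtcCCCAGAGa
The 3' UTR of CCND1, of 3192 bases, held the word at these 2 places. CDK6, whose 3' UTR of 10219 bases is the longest of the 10 members, had no match. The word was present in 20.5% of the 12145 tested genes with a 3' UTR. Among genes with a 3' UTR within 20% of the same length, 31.1% held it for the length of CCND1 and 54.1% for that of CDK6. A match of letters is a description and not a functional site. Neither CCND1 nor CDK6 was called in any of the 3 comparisons below.

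E2F1 is known to be a target of its own family, so the members' promoters were searched on both strands for the words TTTCCCGC, TTTCGCGC, TTTGCCGC and TTTGGCGC, which E2F factors bind. RefSeq windows from 250 bases before to 50 after the start (GRCh38.p14) were found for 6 of the 10 members, CCND3, CCNE1, CDK4, CDK6, E2F1 and RB1, the last at an internal start of the gene. E2F1 was the member whose windows held any of the words. Its 2 matches, in capitals, lie on opposite strands just before the start, GCGGCAAA being TTTGCCGC read on the other strand.
E2F1 promoter, chr20:33686378-33686438, minus strand: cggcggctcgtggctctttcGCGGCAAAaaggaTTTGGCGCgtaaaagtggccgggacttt
Of 35116 promoter windows of that length, 3.31% held at least 1 of these words. The E2F1 mRNA was not called in any comparison (values below).

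The libraries held 15373992 to 19912893 counts, and all 10 members were among the 14415 genes that passed the filter on low counts. The si-circ235-2 libraries stood apart, with TMM factors of 1.10 and 1.19 against 0.890 to 1.03 in the others, 22.4% to 24.3% of counts in the 100 most abundant genes against 27.9% to 31.5%, and 20271 and 21310 genes detected against 18021 to 19777. Levels are given as CPM, counts scaled to a library of fixed size after TMM normalization, and genes are called at an adjusted p under 0.05 in edgeR's quasi-likelihood test. Nothing in the labels says that the libraries came from separate cultures beyond their being biological replicates, so p-values measure the spread between these libraries. Both comparisons with NC share the 2 NC libraries. KRT8 and KRT18, keratins of epithelial cells, lay between 939 and 2307 CPM, whereas CDH1 and KRT19 stayed at or under 0.287 CPM. The urothelial markers UPK3A and KRT20 were at 0 in all 6 libraries, and 2 of 9 urothelial markers, PPARG and GATA3, reached 1 CPM in any library. The leukocyte markers PTPRC, CD3E and LYZ were at 0 in all 6 libraries. The 4 mesenchymal markers all reached 1 CPM and summed to 630 to 1548 CPM. Some of these markers were called in the same comparisons as the members. PPARG was higher with si-circ235-1 (1.87-fold, adjusted p = 0.0264) and with si-circ235-2 (2.19-fold, adjusted p = 0.00310) than in NC, and the mesenchymal markers FN1 (2.62-fold, adjusted p = 0.00182) and CDH2 (1.87-fold, adjusted p = 0.0275) were higher with si-circ235-2. Between the siRNAs, FN1 and CDH2 were higher and VIM and KRT18 lower with si-circ235-2. The part of these differences in the members' values was not tested. The 3 endothelial markers summed to 0.489 to 2.62 CPM. In bulk samples, less RNA per cell and fewer cells expressing a gene cannot be told apart.

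CCND1 was the most abundant member for its length in NC. Per kilobase of merged exons, NC levels were 126 ± 7.998 CPM (SD, n = 2) for CCND1, 40.9 ± 1.35 for E2F1, 33.0 ± 1.11 for CDK4 and 28.2 ± 1.76 for CCNE1. CCND3 followed at 13.5 ± 1.04 and CDK2 at 11.3 ± 2.10, then RB1 at 4.35 ± 0.434, CDK6 at 2.07 ± 0.278, CCND2 at 1.04 ± 0.0669 and CCNE2 at 0.351 ± 0.0740. Neighbours in this order did not overlap between their NC libraries, but CCND3 and CDK2 met within rounding, at 12.7 CPM per kilobase in the lower CCND3 library and in the higher CDK2 library. The place of CDK4 depended on the length used, since per kilobase of its longest transcript it stood at 50.3 CPM, above E2F1 at 40.9. With si-circ235-1 CDK4 also stood above E2F1 per kilobase of merged exons, at 31.8 against 31.3 CPM. Under si-circ235-2 CDK2, at 16.8 CPM per kilobase of merged exons, stood above CCND3 at 9.83.

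**Figure D1:**
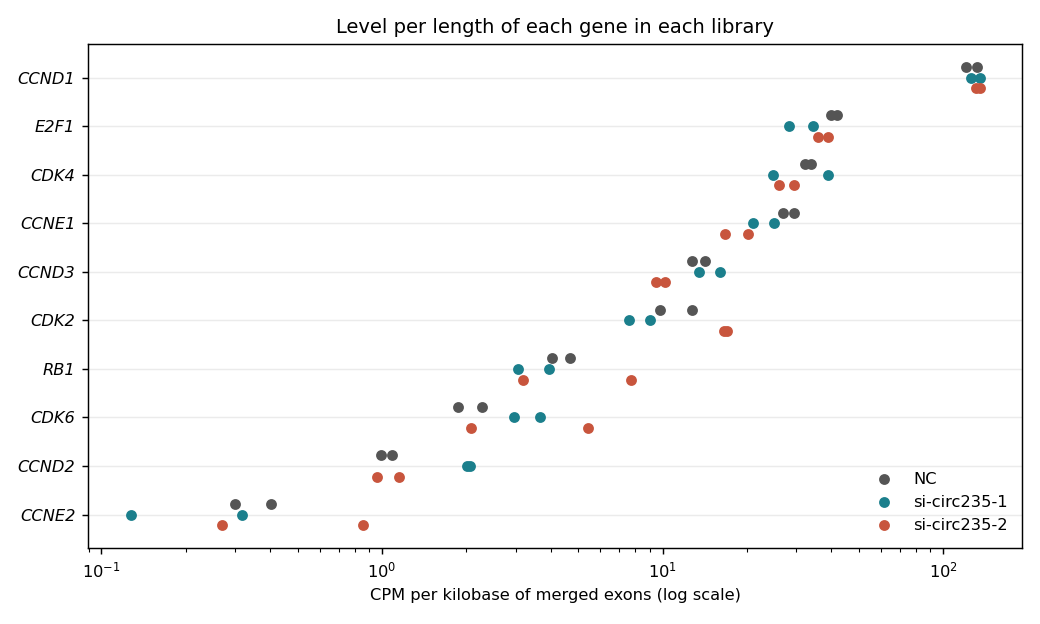
Levels of the 10 members in CPM per kilobase of merged exons on a logarithmic axis, for NC, si-circ235-1 and si-circ235-2, with 1 point per library. CCND1 is highest, at 126 in the NC mean, and CCNE2 lowest, at 0.351.

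Within each family 1 member made up most of the mRNA per kilobase. Per kilobase of merged exons, CCND1 made up 88.2% to 92.6% of the D cyclins over the 6 libraries, and CCNE1 95.1% to 99.4% of the E cyclins. The share of CCND1 depended on the length used. Per kilobase of the longest transcript, NC levels were 141 CPM for CCND1, 32.7 for CCND3 and 1.15 for CCND2. CCND2 made up 0.731% and 0.746% of the D cyclins in NC, 1.34% and 1.41% with si-circ235-1 and 0.781% and 0.679% with si-circ235-2. CDK4 made up 82.8% to 94.5% of CDK4 and CDK6 together, with the lowest share in si-circ235-2 replicate 2. CDK2 made up 21.3% and 27.2% of the 3 kinases in NC, 17.7% and 21.1% with si-circ235-1 and 35.1% and 34.5% with si-circ235-2.

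The siRNAs differed in which members were called. CCND2 rose with si-circ235-1 against NC, the only member of 10 called there. In all genes tested 5.88% were called in this comparison, 2.24% of them higher and 3.64% lower as shares of the 14415. CCNE1 fell with si-circ235-2 against NC, again the only member of 10 called, against 31.4% of all genes (15.7% higher and 15.7% lower). With only 10 genes, this lower share is not a result about the members. At an unadjusted p under 0.05 in the same edgeR test stood 4 of 10 members, beside 6212 of the 14415 genes tested. In the direct comparison of si-circ235-2 with si-circ235-1 CDK2 was higher and CCND2 and CCND3 were lower, 3 of 10 members, against 39.7% of all genes (21.1% higher and 18.6% lower). The members' median log2 fold change was -0.17 for si-circ235-1 against NC, 0.05 for si-circ235-2 against NC and 0.10 for si-circ235-2 against si-circ235-1, beside -0.03, -0.0038 and 0.04 over all genes tested.

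**Figure D2:**
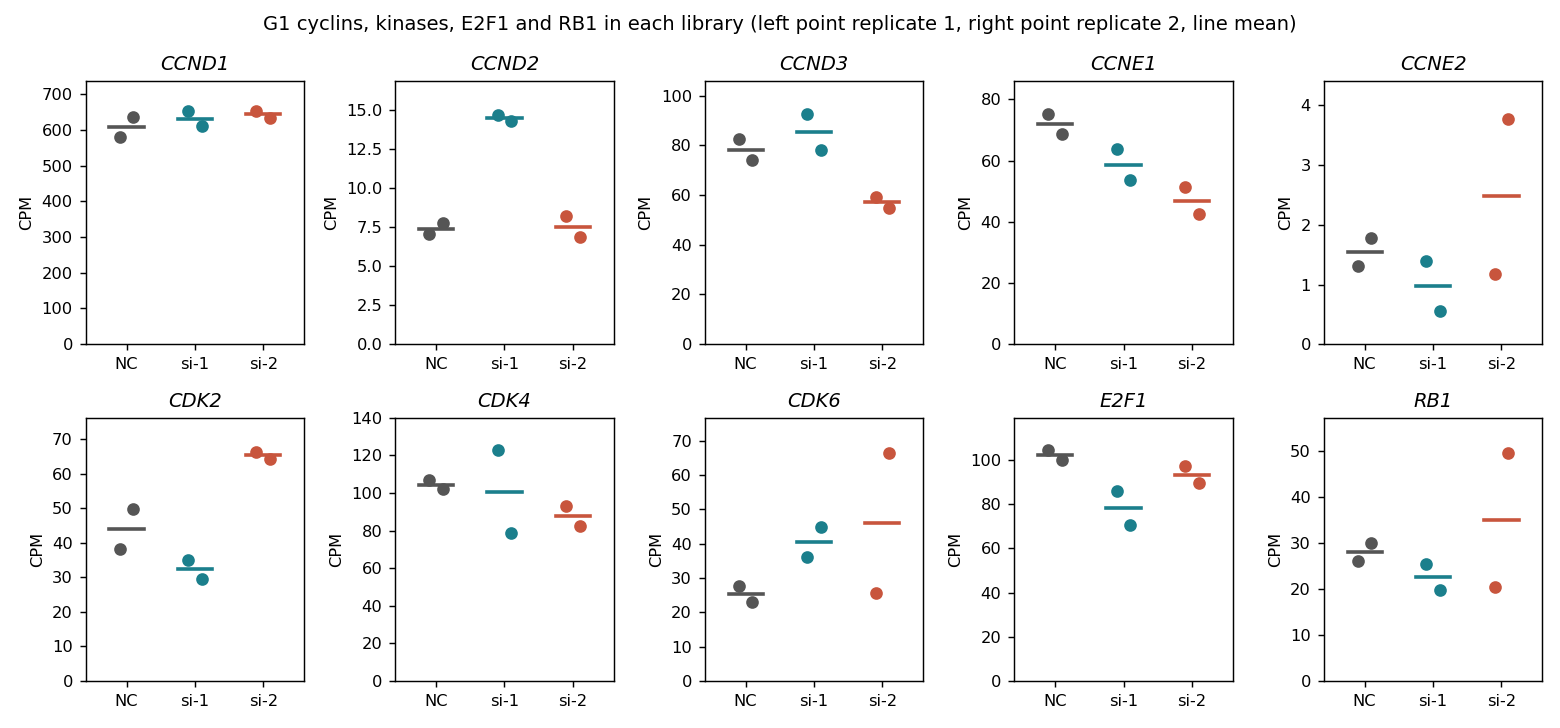
CPM of each member in the 6 libraries, on linear axes from 0, where si-1 and si-2 stand for si-circ235-1 and si-circ235-2, the left point of each pair is replicate 1, the right point replicate 2, and the line their mean. CCND2 is highest in both si-circ235-1 libraries (14.7 and 14.3 CPM), CDK2 in both si-circ235-2 libraries (66.2 and 64.4 CPM), and CDK6, RB1 and CCNE2 in replicate 2 of si-circ235-2.

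CCND1, the main D cyclin of epithelial cells (ENSG00000110092.3, chr11:69641087-69654474, plus strand), was not called in any comparison. It stood at 581 and 636 CPM in NC, 653 and 610 with si-circ235-1 and 654 and 634 with si-circ235-2, and the 3 groups overlapped. Its log2 fold change was 0.05 for si-circ235-1 against NC (95% interval -0.37 to 0.48, adjusted p = 0.897) and 0.08 for si-circ235-2 against NC (-0.35 to 0.51, adjusted p = 0.779). Between the siRNAs the value was 0.03 (-0.40 to 0.46, adjusted p = 0.920). With a length and GC trend removed, CCND1 stood at -0.35 for si-circ235-2 against NC (adjusted p = 0.0703). Between the siRNAs it then stood at -0.51 (adjusted p = 0.0116), a call that the main fit did not make. Unstranded reads of 10.3% of its merged exons cannot be told from LTO1 on the opposite strand, which held 179 to 429 counts beside 8856 to 13264 for CCND1.

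CCND2 (ENSG00000118971.7, chr12:4273772-4305350, plus strand) was the least abundant D cyclin and the one that rose with si-circ235-1. The libraries gave 7.08 and 7.76 CPM in NC, 14.7 and 14.3 with si-circ235-1 and 8.20 and 6.88 with si-circ235-2, from counts of 108 to 257. Both si-circ235-1 libraries lay above all others, and the NC and si-circ235-2 libraries overlapped. Fitted on the log2 scale, its fold change was 0.97 ± 0.24 (SE) for si-circ235-1 against NC, 1.95-fold (adjusted p = 0.0442), and 0.02 for si-circ235-2 against NC (-0.52 to 0.56, adjusted p = 0.958). The siRNAs differed directly, with -0.95 ± 0.24 for si-circ235-2 against si-circ235-1 (adjusted p = 0.0107). The first call was lost when any 1 of the NC or si-circ235-1 libraries was left out (adjusted p = 0.104 to 0.217) and without TMM factors (0.88, adjusted p = 0.0797). AC008012.1 on the same strand shares 13.8% of the merged exons of CCND2 and was not analysed here.

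CCND3 (ENSG00000112576.12, chr6:41934933-42050357, minus strand), which pairs with the same kinases as CCND1, was lower with si-circ235-2 than with si-circ235-1. It stood at 82.5 and 74.0 CPM in NC, 92.6 and 78.3 with si-circ235-1 and 59.1 and 54.9 with si-circ235-2. The si-circ235-2 libraries lay below all 4 others. On the log2 scale, si-circ235-2 differed from si-circ235-1 by -0.58 ± 0.18 (adjusted p = 0.0261), while against NC si-circ235-2 gave -0.46 ± 0.18 (-0.86 to -0.06, adjusted p = 0.0785) and si-circ235-1 gave 0.13 (-0.27 to 0.53, adjusted p = 0.712). Leaving out any 1 of the 4 siRNA libraries ended the call between the siRNAs (adjusted p = 0.0509 to 0.141), as did dropping the TMM factors (-0.25, adjusted p = 0.303).

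CCNE1 (ENSG00000105173.13, chr19:29811898-29824308, plus strand), the cyclin that activates CDK2 at the entry to S phase, fell with si-circ235-2. It stood at 75.2 and 68.8 CPM in NC, 63.7 and 53.8 with si-circ235-1 and 51.3 and 42.4 with si-circ235-2. The 3 groups did not overlap and followed each other in this order. Against NC the log2 fold change was -0.62 ± 0.19 for si-circ235-2, 0.651 times the NC level (adjusted p = 0.0311), and -0.29 ± 0.19 for si-circ235-1 (-0.72 to 0.13, adjusted p = 0.368). The difference between the siRNAs, -0.33 (-0.75 to 0.10, adjusted p = 0.199), was not called, so the fall was not shown to be particular to si-circ235-2. The call was lost without NC replicate 1 (adjusted p = 0.172), NC replicate 2 (0.0632) or si-circ235-2 replicate 2 (0.1996), and without TMM factors (-0.36, adjusted p = 0.179).

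CCNE2 (ENSG00000175305.17, chr8:94879770-94896678, minus strand), the other E cyclin, was near the limit of counting. It had 20 and 29 counts in NC, 20 and 10 with si-circ235-1 and 20 and 79 with si-circ235-2. The si-circ235-2 libraries differed by 3.20-fold in CPM, and the groups overlapped. The intervals of its log2 fold change were wide, -2.10 to 0.73 for si-circ235-1 and -0.59 to 1.98 for si-circ235-2 against NC, with adjusted p of 0.548 and 0.392. INTS8 on the opposite strand covers 37.0% of its merged exons and held 375 to 1014 counts, with the most in the same library, si-circ235-2 replicate 2.

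CDK2 (ENSG00000123374.10, chr12:55966769-55972784, plus strand), the kinase partner of the E cyclins, was higher with si-circ235-2 than with si-circ235-1. It stood at 38.0 and 49.6 CPM in NC, 35.05 and 29.6 with si-circ235-1 and 66.2 and 64.4 with si-circ235-2. The si-circ235-1 libraries lay below NC and the si-circ235-2 libraries above it, without overlap. The log2 fold change of si-circ235-2 against si-circ235-1 was 1.02 ± 0.20, 2.02-fold (adjusted p = 0.00328), and it was called in 13 of 13 alternatives, at 0.86 to 1.35. Against NC the values were -0.44 (-0.89 to 0.01, adjusted p = 0.204) for si-circ235-1 and 0.57 (0.13 to 1.02, adjusted p = 0.0508) for si-circ235-2, neither of them called. The second passed the threshold without NC replicate 2 (0.79, adjusted p = 0.0397), without TMM factors (0.82, adjusted p = 0.0247) and after removal of a length and GC trend (0.56, adjusted p = 0.0313). PMEL on the opposite strand shares 2.29% of its merged exons and held 20 to 35 counts.

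CDK4 (ENSG00000135446.16, chr12:57747727-57756013, minus strand), a partner of the D cyclins, was not called in any comparison. It stood at 107 and 102 CPM in NC, 123 and 78.5 with si-circ235-1 and 93.0 and 82.3 with si-circ235-2. The si-circ235-1 libraries differed by 1.56-fold and enclosed all others. Against NC its log2 fold change was -0.05 (-0.54 to 0.43, adjusted p = 0.909) for si-circ235-1 and -0.25 (-0.74 to 0.23, adjusted p = 0.408) for si-circ235-2. TSPAN31 on the opposite strand covers 43.2% of the merged exons of CDK4, and held 132 and 141 counts in NC, 79 and 71 with si-circ235-1 and 202 and 232 with si-circ235-2, beside 1407 to 1756 for CDK4.

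CDK6 (ENSG00000105810.9, chr7:92604921-92836594, minus strand), the other partner of the D cyclins, differed between the libraries of si-circ235-2. It stood at 27.7 and 22.9 CPM in NC, 36.2 and 44.99 with si-circ235-1 and 25.5 and 66.3 with si-circ235-2. Both si-circ235-1 libraries lay above NC, and the si-circ235-2 libraries lay on either side of the si-circ235-1 libraries. The log2 fold change against NC was 0.68 ± 0.36 (-0.11 to 1.47, adjusted p = 0.267) for si-circ235-1 and 0.86 ± 0.36 (0.07 to 1.65, adjusted p = 0.0905) for si-circ235-2. The first was called when the 2 conditions were fitted alone (0.70, adjusted p = 0.0369). Without si-circ235-2 replicate 1 the second value was 1.39 (adjusted p = 0.000515). It was also called by DESeq2 (adjusted p = 0.0483), without the filter on low counts (0.00365) and without TMM factors (0.0426), and was 0.0093 without si-circ235-2 replicate 2.

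E2F1 (ENSG00000101412.12, chr20:33675683-33686404, minus strand), the activator that RB1 restrains, was not called in any comparison. It stood at 105 and 99.99 CPM in NC, 86.1 and 70.7 with si-circ235-1 and 97.4 and 89.5 with si-circ235-2. The si-circ235-1 libraries were the lowest and NC the highest, without overlap. Its log2 fold change against NC was -0.39 ± 0.18 (-0.78 to 0.01, adjusted p = 0.212) for si-circ235-1 and -0.13 ± 0.18 (-0.53 to 0.26, adjusted p = 0.611) for si-circ235-2, and 0.25 (-0.14 to 0.65, adjusted p = 0.287) between the siRNAs. The sign for si-circ235-2 against NC turned to 0.12 without TMM factors and 0.40 after removal of the length and GC trend. For si-circ235-1 against NC the same removal gave -0.065 (adjusted p = 0.782). No exons of another gene overlap those of E2F1.

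RB1 (ENSG00000139687.13, chr13:48303726-48599436, plus strand), the tumour suppressor that binds E2F factors, differed between the libraries of si-circ235-2, as CDK6 did. It stood at 26.1 and 30.1 CPM in NC, 25.4 and 19.8 with si-circ235-1 and 20.5 and 49.7 with si-circ235-2. The si-circ235-1 libraries lay just below NC, whereas the si-circ235-2 libraries lay on either side of it. The log2 fold change against NC was -0.32 (-1.08 to 0.45, adjusted p = 0.615) for si-circ235-1 and 0.32 (-0.43 to 1.08, adjusted p = 0.505) for si-circ235-2. Without si-circ235-2 replicate 1 the latter was 0.82 (adjusted p = 0.0236), and without replicate 2 it was -0.46.

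**Figure D3:**
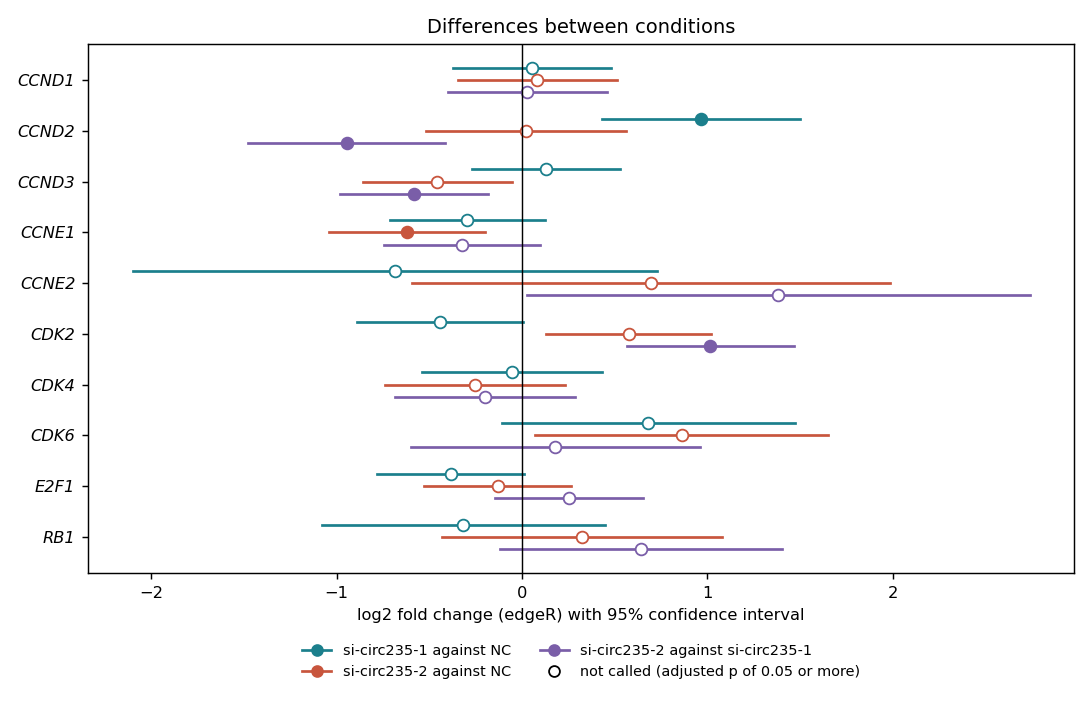
Log2 fold change of the 10 members with its 95% interval in the 3 comparisons, where filled points mark genes called by edgeR. CCND2 (0.97) is filled for si-circ235-1 against NC, CCNE1 (-0.62) for si-circ235-2 against NC, and CDK2 (1.02), CCND2 (-0.95) and CCND3 (-0.58) for si-circ235-2 against si-circ235-1.

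The spread between the si-circ235-2 libraries fell on 3 members. Replicate 2 exceeded replicate 1 by 1.68 on the log2 scale for CCNE2, 1.38 for CDK6 and 1.28 for RB1, and by -0.27 to -0.04 for the other 7. CCNE2, RB1 and CDK6 are the members with the lowest GC content of their longest transcript, 36.9%, 37.3% and 39.5%. Over all tested genes the median of the same log2 ratio was 0.43 in the 2244 genes under 40% GC and -0.22 in the 2123 genes at 60% or more. The corresponding medians under 40% GC were 0.13 in NC and 0.25 in si-circ235-1. The log2 ratios of CCNE2, RB1 and CDK6 were 0.43, 0.20 and -0.28 in NC, and -1.33, -0.36 and 0.32 in si-circ235-1. In si-circ235-2 the 3 members thus lay above the median of their GC class, and the part of GC content in their values was not tested.

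**Figure D4:**
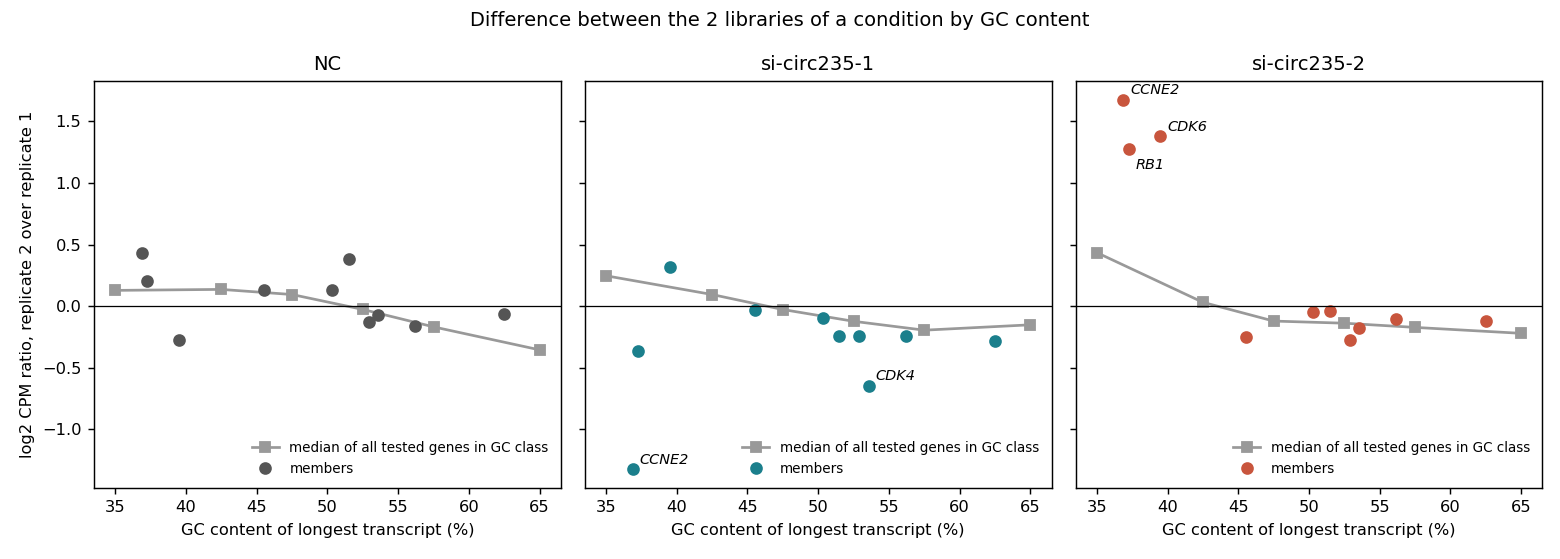
Log2 ratio of CPM of replicate 2 to replicate 1 against the GC content (%) of the longest transcript, in 1 panel per condition, where named points are the members and grey squares the medians of all tested genes per GC class. In si-circ235-2 CCNE2, CDK6 and RB1 stand at 1.28 to 1.68 and the other members at -0.27 to -0.04.

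The other genes of the pathway are given by list, and their counts stand beside the 5.88% of all genes called with si-circ235-1 and the 31.4% called with si-circ235-2 against NC. Among the 7 tested CDK inhibitors, which bind the G1 kinases or their complexes with cyclins, 1 was called with si-circ235-1 and 2 with si-circ235-2. CDKN1C rose with si-circ235-1, from 1.28 ± 0.511 CPM (SD, n = 2) in NC to 4.302 ± 1.73 (log2 fold change 1.76 ± 0.45, adjusted p = 0.0451), a call lost without TMM factors (adjusted p = 0.0504). CDKN2A, a gene with a product that binds CDK4 and CDK6, fell with si-circ235-2 from 119 ± 22.2 to 61.1 ± 6.22 CPM (-0.96 ± 0.19, adjusted p = 0.00553). Counts per gene do not tell the products of CDKN2A apart. CDKN2C, of the same family, fell from 34.7 ± 4.42 to 19.5 ± 1.14 CPM (-0.83 ± 0.20, adjusted p = 0.0116). The median log2 fold change of the 7 was 0.26 with si-circ235-1 and 0.01 with si-circ235-2.

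Of the 11 tested pocket proteins and E2F factors other than RB1 and E2F1, 1 fell with si-circ235-1, while 4 rose and 1 fell with si-circ235-2. The first was E2F2, an activating E2F, at 29.5 ± 1.25 CPM in NC and 15.8 ± 2.24 with si-circ235-1 (-0.90 ± 0.21, adjusted p = 0.0369). RBL2, a relative of RB1 that acts in resting cells, rose with si-circ235-2 from 12.9 ± 5.71 to 69.2 ± 11.5 CPM, 5.36-fold (2.42 ± 0.29, adjusted p = 0.00179). E2F7, a repressor of E2F target genes, rose from 19.5 ± 0.0532 to 57.0 ± 3.13 CPM, 2.92-fold (1.54 ± 0.20, adjusted p = 0.00179). E2F3, an activating E2F, rose by 1.07 ± 0.23 (adjusted p = 0.00637), TFDP1 was the remaining gene that rose, and E2F4, which mostly represses with RBL2, fell by 0.73 (SE 0.18, adjusted p = 0.0141). The median of the 11 was -0.22 with si-circ235-1 and 0.49 with si-circ235-2.

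**Figure D5:**
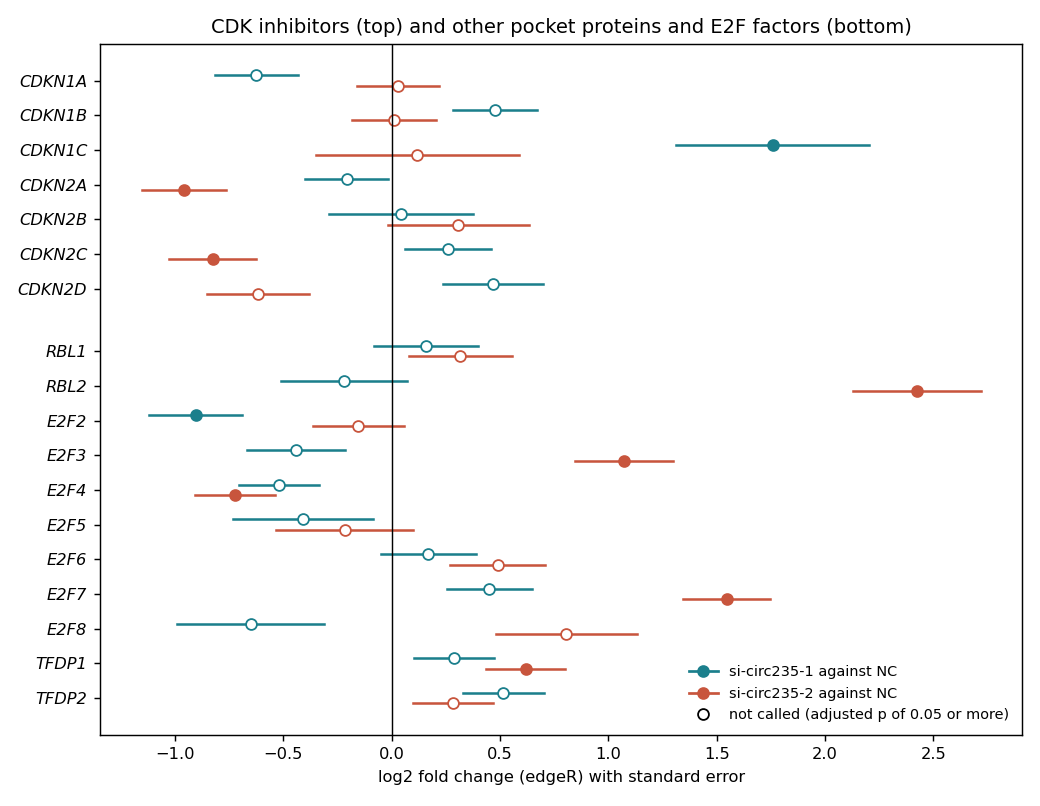
Log2 fold change against NC with its standard error for the CDK inhibitors and for the pocket proteins and E2F factors other than RB1 and E2F1, where filled points mark called genes. RBL2 (2.42) and E2F7 (1.54) under si-circ235-2 are the highest called values of their list, and CDKN2A (-0.96) under si-circ235-2 the lowest of the inhibitors.

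Of 14 genes of kinase activation and cyclin turnover, 2 rose with si-circ235-1, and 3 rose and 4 fell with si-circ235-2. GSK3B, a kinase that marks D and E cyclins for degradation, rose under each siRNA, from 44.7 ± 7.12 CPM in NC to 98.2 ± 7.18 with si-circ235-1 (1.14 ± 0.19, adjusted p = 0.0119) and 120.0 ± 4.65 with si-circ235-2 (1.43 ± 0.19, adjusted p = 0.00179). CKS2, a small subunit that binds CDKs, rose with si-circ235-1 from 199 ± 12.2 to 376 ± 39.0 CPM (0.92, adjusted p = 0.0277) and fell with si-circ235-2 to 125 ± 22.7 CPM (-0.67, adjusted p = 0.0271). CDC37, a co-chaperone that loads CDK4 onto HSP90, fell with si-circ235-2 from 467 ± 144 to 217 ± 34.6 CPM (-1.10 ± 0.25, adjusted p = 0.00915). CCNH, the cyclin of the CDK-activating kinase (-0.76, adjusted p = 0.0188), and CKS1B, a cofactor of SKP2 (-0.74, adjusted p = 0.0329), also fell. SKP2 itself and CDC25A were the other genes that rose with si-circ235-2. The list's median was 0.24 with si-circ235-1 and 0.01 with si-circ235-2.

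In the list of 24 S phase genes that E2F factors control, edgeR called 0 with si-circ235-1 (DESeq2 called 1, and 3 had an unadjusted p under 0.05 in edgeR), and with si-circ235-2 2 rose and 7 fell, 9 of 24 beside 31.4% of all genes. TK1, thymidine kinase, fell from 470 ± 133 CPM in NC to 233 CPM (-1.01, adjusted p = 0.00841) and MCM5, a subunit of the replicative helicase, from 304 to 168 CPM (-0.85, adjusted p = 0.0100). TYMS, thymidylate synthase (-0.74, adjusted p = 0.0148), and CDT1, a factor that licenses replication origins (-0.72, adjusted p = 0.0227), fell as well. PCNA, MCM7 and FEN1 were the other genes that fell, and CCNA2 and RRM1 rose. The median of the list was -0.05 with si-circ235-1 and -0.10 with si-circ235-2. Leaving out a library of a comparison leaves 1 in its group, and calls over all tested genes then fell as well. The losses that follow were thus not shown to be particular to these lists. With si-circ235-2, edgeR called 0 of the 24 when NC replicate 1 was left out and 1 when si-circ235-2 replicate 2 was left out. Leaving out NC replicate 1 ended 13 of the 18 calls under si-circ235-2 of genes named in these lists and in that of the other cyclins and kinases, and RBL2, E2F7, GSK3B, CDK12 and CCNT1 kept theirs. Of the other pocket proteins and E2F factors 2 of 11 were then called, and of the kinase activation and turnover genes 1 of 14, while leaving out si-circ235-2 replicate 2 gave 3 of 11 and 3 of 14. Under si-circ235-1 leaving out its replicate 2 ended all 5 calls of named genes, and leaving out any other NC or si-circ235-1 library ended 3 or 4.

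GC content moved with the comparisons as well. For si-circ235-2 against NC the median log2 fold change was -0.07 in genes under 40% GC, 0.27 in those at 45% to 50% and -0.61 in those at 60% or more. After the length and GC trend was removed, CCND2 under si-circ235-2 stood at -0.67 (adjusted p = 0.0414), while CCND2 under si-circ235-1, CCNE1 under si-circ235-2 and all 3 differences between the siRNAs were still called. The same removal ended 4 of the 18 calls under si-circ235-2 of genes named in the other lists, those of CCNH, CDKN2A, CDT1 and TK1. Without TMM factors 6 of the 18 were lost, those of CCNH, CDKN2C, CDT1, CKS1B, E2F4 and TYMS. Genes that respond to double-stranded RNA, 8 in all, summed to 83.3 to 159 CPM, and ISG15 was the 1 gene called against NC over both siRNAs, lower with si-circ235-2.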

How the data were processed

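T24 libraries of 3 conditions, 2 per condition, were sequenced without strand information after enrichment with oligo dT beads. The deposited values are raw counts per gene in whole numbers, and the column names gave the library of each. The submitters' processing notes name FastQC, cutadapt, STAR and hg38. Not given in the sources used here are the counting tool, its annotation and any filters. GENCODE release 29 (GRCh38), which may not be the release the authors used, supplied gene names, lengths, exons and 3' UTRs. It held 99.55% of the 58288 identifiers.

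Counts were tested in R 4.3.3 with edgeR 4.0.16 (filterByExpr, TMM, quasi-likelihood test, 1 fit of all 6 libraries with 1 mean per condition), with Benjamini-Hochberg adjustment over 14415 genes and a threshold of 0.05. Intervals are 95% intervals of that fit, and levels are CPM after TMM. Precision is limited by 2 libraries per condition more than by the 15373992 to 19912893 counts per library. Members, lists and alternatives were chosen with earlier results of these data known. All 10 members are named, and of each other list up to 4 genes per comparison, those with the largest log2 fold change among its genes called against NC. The 3 genes nearest E2F1 and CCND1 were taken by Euclidean distance of centred log2 CPM (prior count 2) among tested genes with a mean of at least 10 CPM. Alternatives were DESeq2 1.42.0, no TMM factors, RLE factors, no filter on low counts, 2 conditions alone, a replicate block, each library left out, removal of a smooth dependence on transcript length and GC content (splines with 5 degrees of freedom), and the longest transcript as length. The edgeR comparisons were tested on simulated counts with 200 changed genes. At a log2 change of 1, 15% were called for si-circ235-1 against NC, 29.5% for si-circ235-2 against NC and 28.5% between the siRNAs. At a log2 change of 2 these shares were 87.5%, 80% and 85.5%, with 23, 16 and 14 false calls. A gene that was not called may thus still have changed, and a called gene may be a false call. The data held more calls than these 200 changed genes. They numbered 847 with si-circ235-1 and 4530 with si-circ235-2 against NC, and 5725 between the siRNAs. The simulated shares therefore need not carry over to the data. A marker gene and a seed match of a member are not reported here.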

Additional observations from a re-analysis of the deposited data

Results flagged for a closer look

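CDK2 and CCND3 drew attention because their fitted changes against NC had opposite signs under the siRNAs and the difference itself was called by edgeR. For CDK2 the log2 fold change of si-circ235-2 against si-circ235-1 was 1.02 (adjusted p = 0.00328), higher in 2 of 2 libraries than in any si-circ235-1 library. For CCND3 it was -0.58 (adjusted p = 0.0261), lower in 2 of 2 libraries. The flag required a called difference, so this separation of the libraries adds no support for it. Neither gene was called against NC under either siRNA. Groups of 2 libraries are too small to single out a library by Dixon's test.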

How the results depend on the processing

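Of the members' fold changes under 13 alternatives, 333 kept their direction and side of the threshold, 17 lost and 16 gained a call without a change of sign, and 24 changed sign, 2 of which also gained a call (CCND2 with si-circ235-2 against NC and CCND1 between the siRNAs, both with the length and GC trend removed). The genes called with si-circ235-1 against NC numbered 847, and 1678 without the filter, 1642 with 2 conditions alone, 1336 with DESeq2 and 1965 (1187 higher, 778 lower) after removal of the length and GC trend. Leaving out 1 library gave 0 to 1482 (74 when this was NC replicate 1, 134 for NC replicate 2, 423 for si-circ235-1 replicate 1, and 0 for its replicate 2, where edgeR had 2110 at an unadjusted p under 0.05). Against NC, si-circ235-2 gave 769 (without NC replicate 1) to 4240, and between the siRNAs 2817 (without si-circ235-1 replicate 2) to 5558. Without TMM factors the calls were 179 higher and 529 lower, 3173 and 1294, and 4534 and 1496, and the medians over all genes -0.11, 0.25 and 0.37. With the trend removed the siRNAs differed in 2471 higher and 3344 lower.

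Sign changes of members were as follows, with the cause not tested. For si-circ235-1 against NC, CCND1 was -0.031 without TMM factors, -0.012 without NC replicate 1 and -0.00058 without si-circ235-1 replicate 1, CCND3 -0.0037 without the latter, and CDK4 0.10 with the trend removed and -0.42 to 0.24 with 1 library left out, the highest without si-circ235-1 replicate 2. For si-circ235-2 against NC, without TMM factors CDK4 was 0.0015 and E2F1 0.12. With the trend removed CCND1 was -0.35, CCND2 -0.67 and E2F1 0.40. With 1 library left out CCND2 was -0.11 to 0.14 (lowest without si-circ235-2 replicate 1, and -0.049 without NC replicate 1), CCNE2 -0.39 to 1.28 and RB1 -0.46 to 0.82, the lowest of both without si-circ235-2 replicate 2. Between the siRNAs, CCND1 was -0.0071 with RLE factors, -0.51 with the trend removed (adjusted p = 0.0116) and -0.027 to 0.078 with 1 library left out, the lowest without si-circ235-1 replicate 2. Without TMM factors CCNE1 was 0.0057 and CDK4 0.13, and with 1 library left out CDK4 was -0.49 to 0.16, the highest without si-circ235-1 replicate 1. CDK6 was -0.24 with the trend removed, and without si-circ235-2 replicate 2 CDK6 was -0.67 and RB1 -0.14.

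The calls of CCND2 and CCND3 between the siRNAs held in 10 and 8 of 13 alternatives. That of CCND2 against NC held in 8 and that of CCNE1 in 9. Calls gained without si-circ235-2 replicate 1 were those of CDK6 and RB1 against NC, and CCNE2 (1.97), CDK6 (0.71) and RB1 (1.14) between the siRNAs. E2F1 between the siRNAs was called without TMM factors (0.59) and with the trend removed (0.47).

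A replicate block gave 937, 4750 and 6043 calls and called CCND3 with si-circ235-2 against NC (-0.45, adjusted p = 0.0474), while CDKN1C with si-circ235-1 lost its call (1.76, adjusted p = 0.0687). The labels give no shared batch, and same-numbered libraries had correlated deviations of -0.0943 (NC and si-circ235-1), 0.149 (NC and si-circ235-2) and 0.139 (between the siRNAs), so the numbers were not taken to pair the libraries. Depth limits CCNE2 most, with 10 to 79 counts.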

Other observations

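The cyclins and kinases that act outside G1 were also counted. Of 16 tested genes, 1 fell under si-circ235-1, while under si-circ235-2 3 rose and 3 fell. Over all genes tested, 5.88% were called with si-circ235-1 against NC and 31.4% with si-circ235-2 against NC. CDK12, a kinase of transcription elongation, rose with si-circ235-2 from 40.5 to 115 CPM (log2 fold change 1.504, adjusted p = 0.00179) and CCNT1, a cyclin of elongation, from 33.4 to 86.1 CPM (1.37, adjusted p = 0.00267). CDK1, the mitotic kinase, fell from 199 to 86.6 CPM (-1.20, adjusted p = 0.0119) and CDK5, a kinase known from neurons, from 102 to 47.3 CPM (-1.11, adjusted p = 0.0056). The gene called with si-circ235-1 was CCNK, with 8 and 30 counts in NC, 0 and 2 with si-circ235-1 and 54 and 69 with si-circ235-2. Over the 16, the median log2 fold change against NC was 0.06 (si-circ235-1) and 0.14 (si-circ235-2).

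The genes whose pattern over the 6 libraries lay nearest E2F1, among 8995 genes, were GDF11, DHCR7 and C12orf65, at distances of 0.105, 0.115 and 0.116 in centred log2 CPM. Those nearest CCND1 were GMPS, MKNK1 and CCNF, at 0.0951, 0.0998 and 0.101.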
